A study of Mus musculus with 12 samples.

Results

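The mitochondrial genome encodes 13 proteins, 2 ribosomal RNAs and 22 transfer RNAs, and the transcripts of these 37 genes are described here in BV2 cells, an established line of immortalised mouse microglia. Members were all genes of the deposited count table whose symbol starts with mt-, which gave 33 of 24934 genes: 13 mRNAs, 2 rRNAs and 18 tRNAs. Of these, 21 had enough reads to be tested, namely the 13 mRNAs, both rRNAs and 6 tRNAs. RNA was sequenced from 12 samples in 3 groups of 4 libraries each. The Acacetin libraries came from cells that, according to the series' design text, went through oxygen-glucose deprivation with re-oxygenation and then received 10 µM acacetin, a plant flavonoid; the group's own label names acacetin only. The OGD libraries came from cells put through oxygen-glucose deprivation, a culture model of ischaemia. As the series is outlined, these cells were also re-oxygenated and the Control cells were untreated. The group labels themselves say only OGD and Control. All 3 groups were of the same line, with no genetic change labelled, and the labels give neither the length of the deprivation nor the time of harvest. Nothing in the labels tells whether replicate libraries were grown as separate cultures, so the p-values measure only the spread between these libraries, which may be technical.

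Mitochondrial DNA is copied into long transcripts that run over many genes. The heavy-strand transcript holds both rRNAs and all mRNAs except mt-Nd6, which lies on the light-strand transcript together with 8 tRNAs. The tRNAs sit between the other genes like punctuation, and cutting them out releases the mRNAs and rRNAs, most of which then receive a short poly(A) tail. All the mRNAs encode core subunits of the respiratory chain, the machinery that consumes oxygen to make ATP: complex I (mt-Nd1 to mt-Nd6 and mt-Nd4l), complex III (mt-Cytb), complex IV (mt-Co1 to mt-Co3) and complex V, the ATP synthase (mt-Atp6 and mt-Atp8). Because the heavy-strand mRNAs share one transcript, differences between their steady-state levels are known to depend largely on how long each RNA lasts and how it is matured.

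Depth was 16427886 to 32693066 counted reads per library, and the labels name no molecular identifiers, so reads are not independent molecules. In OGD 2 and OGD 3, 13.1% and 21.3% of reads came from Rn18s, the cytosolic 18S rRNA, against 0.137% to 1.86% in the other 10 libraries. The libraries also differed in how their counts depended on gene length, with a slope of log2 CPM on log2 length between -0.21 in Acacetin 1 and 0.30 in Acacetin 3. Values below are in CPM, read counts per library size after TMM scaling, unless FPKM is named. All 8 microglial markers looked up were above 1 CPM and summed to 2674 to 4526 CPM, while neuronal and fibroblast markers summed to at most 0.365 CPM in any library. Of 4 astrocyte markers, 3 were in the table, and the list summed to 70.5 to 157 CPM in Acacetin, 85.7 to 136 CPM in OGD and 200.2 to 219 CPM in Control libraries, nearly all of it Aldoc, an enzyme of sugar breakdown, with Gfap at no more than 0.290 CPM. The oligodendrocyte list summed to 1.07 to 1.66 CPM in Acacetin, 0.821 to 1.17 CPM in OGD and 1.66 to 2.32 CPM in Control libraries. Whether these markers bear on the mitochondrial results was not tested. In bulk RNA, fewer cells of a type and less RNA per cell cannot be told apart, and the same holds for fewer mitochondria and less RNA per mitochondrion.

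Per unit of length, the 13 mRNAs fell into 2 ranges. In the deposited FPKM values, which are scaled by gene length, 7 mRNAs (mt-Co1, mt-Nd1, mt-Cytb, mt-Nd5, mt-Nd6, mt-Nd2 and mt-Nd4) lay between 57.7 and 2128 FPKM over the 12 libraries. The median over all libraries was 1075 FPKM for mt-Co1, 585 FPKM for mt-Nd1 and 114 FPKM for mt-Nd4. In contrast, mt-Co2, mt-Atp6, mt-Co3, mt-Nd3 and mt-Nd4l lay between 0.09 and 25.2 FPKM. These 5 genes and mt-Atp8, at 1.3 to 10.9 FPKM, stand next to one another on the genome, between mt-Co1 and mt-Nd4, and together they gave 7827 of 1815096 reads of mitochondrial mRNAs (0.431%).

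The same 5 genes have near-identical copies in the nucleus. Among GENCODE M21 transcripts of the build GRCm38, pseudogenes on chromosome 1 matched at least 98% of the length of each of the 5 with at least 99% identity: Gm28661 for mt-Co2 (681 of 684 bases), Gm10925 for mt-Atp6 (678 of 681), Gm28437 for mt-Co3 (783 of 784), Gm28438 for mt-Nd3 (345 of 348) and Gm10222 for mt-Nd4l (294 of 297). Of the 7 mRNAs in the upper range, mt-Nd4 had such a copy over 63.6% of its length and mt-Co1 over 31.3%, and the other 5 had none at that identity. A copy of the whole mt-Co1 on chromosome 2, Gm13340, is less alike (97.6% identity) and had 210 reads, against 705803 for mt-Co1. No annotated copy of mt-Atp8 was found. The 5 copies took reads in numbers like those of the genes themselves, 1456 against 2635 for mt-Co2 and 452 against 167 for mt-Nd3, summed over the 12 libraries. By contrast, the mt-Nd4 copy had 218 reads against 78113 for mt-Nd4. The partial copy of mt-Co1 on chromosome 1, Gm29216 (99.8% identity), had 1040 reads, few beside the 705803 of mt-Co1. That number was close to the 1010 reads of the mt-Atp6 copy. How the authors' counting treated reads that match more than 1 place is not given in the sources used here, and its part in these levels was not tested. Levels and changes of these 5 genes are therefore uncertain. For mt-Atp8, which lies among them without an annotated copy, they are uncertain as well. The cause of its low level was not tested.

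The sequences, read 5′ to 3′ from the GENCODE M21 transcripts and counted from the first base of each gene, show how alike gene and copy are. Over the first 45 bases of mt-Co2 and its copy on chromosome 1 no base differs, and the capitals mark the start codon.
mt-Co2: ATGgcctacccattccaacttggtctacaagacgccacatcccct
Gm28661: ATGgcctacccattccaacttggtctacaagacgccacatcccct
In mt-Nd3 a single mismatch, T3C (the gene's base, its position, then the copy's base), stands in the start codon and is shown in capitals.
mt-Nd3: atTaacctgtacactgttatct
Gm28438: atCaacctgtacactgttatct
The copy of mt-Nd4 ends after base 876 of 1378, and the capitals mark bases of the gene past that end, which a read can hold without matching the copy.
mt-Nd4: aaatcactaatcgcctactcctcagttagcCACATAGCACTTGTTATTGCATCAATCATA
Gm28439: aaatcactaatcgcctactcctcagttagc

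**Figure D1:**
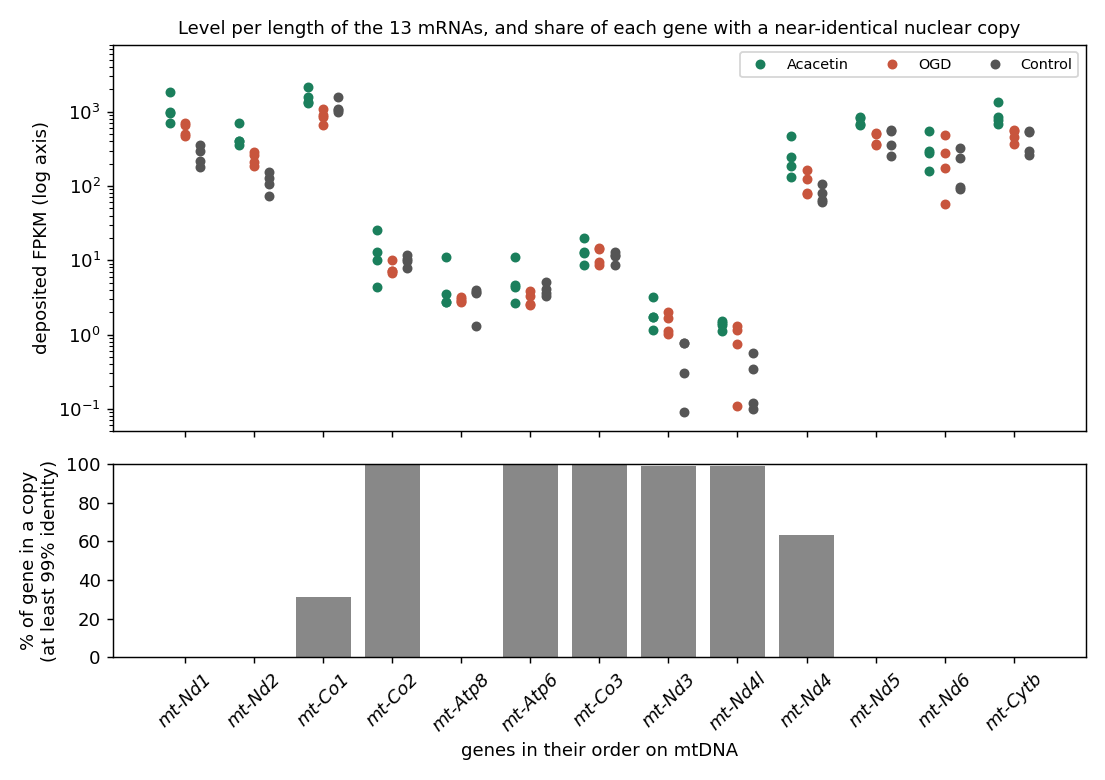
Top: deposited FPKM (log axis) of the 13 mitochondrial mRNAs in their order on the genome, 1 point per library, with Acacetin, OGD and Control side by side. Bottom: percent of each gene's length that a nuclear transcript matches with at least 99% identity. The 5 genes matched over at least 98% of their length lie between 0.09 and 25.2 FPKM, and mt-Atp8, with no annotated copy, lies between 1.3 and 10.9 FPKM.

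All mitochondrial genes together took a larger share of the reads in the Acacetin libraries than in the others. They made up 0.667%, 0.776%, 1.27% and 0.778% of all counted reads in Acacetin 1 to 4, against 0.566%, 0.486%, 0.555% and 0.556% in OGD 1 to 4 and 0.490%, 0.377%, 0.514% and 0.499% in Control 1 to 4. Every Acacetin library was above every OGD and Control library, whereas the OGD and Control libraries overlapped through OGD 2. The means were 0.872% ± 0.269 in Acacetin, 0.541% ± 0.0367 in OGD and 0.470% ± 0.0627 in Control libraries (SD, n = 4 each); a summed share over chosen genes was given no test. Acacetin 3 carried much of the difference: it was 0.332 percentage points between Acacetin and OGD libraries with all of them and 0.200 without Acacetin 3. The OGD and Control means differed by 0.0708 percentage points, and by 0.0399 without Control 2. With cytosolic and mitochondrial rRNA genes left out of both sums, the share was 0.639% to 1.17% in Acacetin, 0.481% to 0.551% in OGD and 0.328% to 0.473% in Control libraries, so that the 3 groups no longer overlapped.

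The make-up of the mitochondrial reads differed between libraries as well. Complex I mRNAs made up 44.5% to 49.5% of the mitochondrial reads in Acacetin, 37.6% to 46.1% in OGD and 23.4% to 40.4% in Control libraries. Complex IV mRNAs, nearly all of them mt-Co1, made up 30.9% to 36.1% in Acacetin, 25.7% to 35.1% in OGD and 37.5% to 55.6% in Control libraries. Complex IV thus had its largest shares in the Control libraries, above every library of the other groups. The rRNAs made up 4.30% to 8.84% in Acacetin, 9.67% to 21.96% in OGD and 5.34% to 14.7% in Control libraries, highest in OGD 3. Complex V, which consists of genes with or beside a nuclear copy, made up 0.0412% to 0.110% over the 12 libraries. The tRNAs made up 0.0581% to 0.229%.

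**Figure D2:**
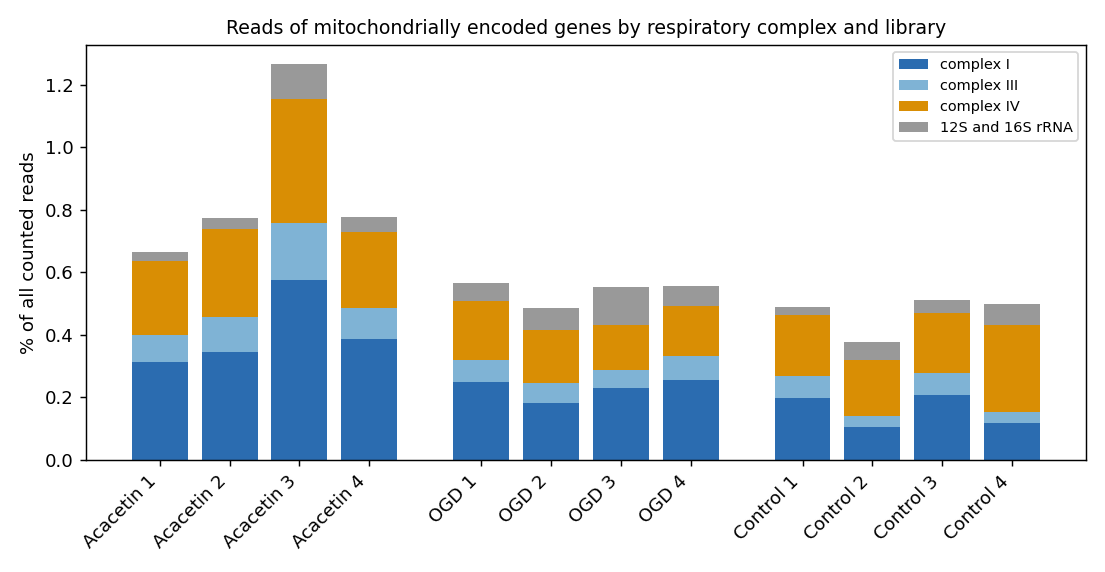
Share of all counted reads (percent, vertical axis) from mitochondrial mRNAs of complexes I, III and IV and from the 12S and 16S rRNAs, stacked for each of the 12 libraries; complex V and tRNA genes, at most 0.229% of mitochondrial reads each, are not drawn. The Acacetin libraries are the tallest, led by Acacetin 3, and the complex IV segment is the widest part of Control 2 and Control 4.

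The test across all genes addressed which single mitochondrial transcripts differed between the groups. Between OGD and Control libraries, 3 of the 21 tested mitochondrial genes were called higher and none lower at an adjusted p under 0.05, all 3 of complex I, where 28.8% of the 13249 tested genes were called (16.2% higher and 12.6% lower). Between Acacetin and Control libraries, 7 of 21 were called higher and none lower, where 26.9% of all tested genes were called (14% higher and 12.9% lower). Between Acacetin and OGD libraries edgeR called 0 of the 21 and 0% of all genes, whose smallest adjusted p was 0.0686. At an unadjusted p under 0.05 that comparison held 685 genes (5.17%), among them 8 of the 21 mitochondrial ones, 7 higher and 1 lower; DESeq2 called 37 genes, none of them mitochondrial. The OGD and Acacetin comparisons with Control share the Control libraries, so their values are not independent of each other. Nor are the 21 genes independent, since most come from a shared transcript and all from the same libraries. Counts over them are descriptions and were not tested. The median log2 fold change of the 21 genes was 0.41 for Acacetin against OGD, 0.41 for OGD against Control and 0.66 for Acacetin against Control, beside -0.02, 0.03 and 0.08 over all tested genes. In the same order of comparisons, 17, 17 and 19 of the 21 genes had a log2 fold change above 0, where 47.5%, 51.6% and 55.1% of all tested genes had one. A log2 fold change of at least 1 was found for 0, 6 and 7 of the 21, where 3.74%, 6.38% and 8.74% of all tested genes reached it.

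**Figure D3:**
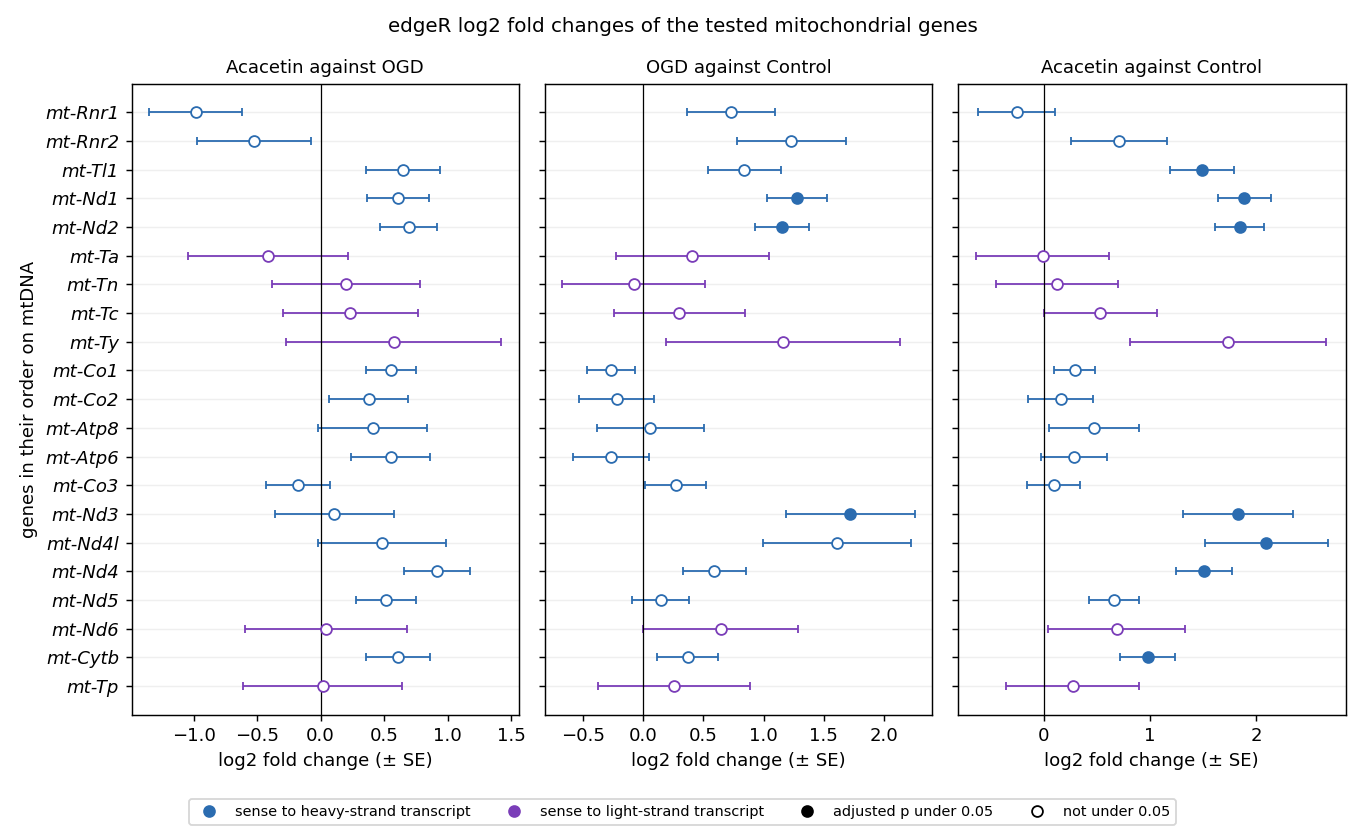
Log2 fold changes (horizontal axis, bars are standard errors) from edgeR for the 21 tested mitochondrial genes in their order on the genome (vertical axis), for Acacetin against OGD, OGD against Control and Acacetin against Control; filled points have an adjusted p under 0.05, and colour gives the strand. No point is filled in the first panel, 3 are in the second and 7 in the third, and all filled points lie above 0.

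In complex I, mt-Nd1 and mt-Nd2 moved together. Both encode membrane subunits of complex I and follow one another on the heavy-strand transcript. mt-Nd1 (ENSMUSG00000064341.1, chromosome M) starts just after the rRNAs and a leucine tRNA, with the codon GTG in place of ATG, shown in capitals in its first 45 bases.
mt-Nd1: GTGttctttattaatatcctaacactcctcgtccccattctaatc
mt-Nd1 was measured at 897, 1058, 1591 and 896 CPM in Acacetin 1 to 4, at 765, 736, 800.4 and 607 CPM in OGD 1 to 4 and at 350.2, 253, 408 and 188 CPM in Control 1 to 4. The 3 groups did not overlap, with Acacetin highest and Control lowest. Groups that do not overlap in this upward direction were found for 5 of the 21 mitochondrial genes and 0.468% of all tested genes between Acacetin and OGD, for 4 and 19% between OGD and Control, and for 8 and 12.1% between Acacetin and Control. The log2 fold change was 1.28 ± 0.25 (SE) for OGD against Control (2.43-fold, edgeR with Benjamini-Hochberg adjustment, adjusted p = 0.00177) and 1.89 ± 0.25 for Acacetin against Control (3.7-fold, edgeR adjusted p = 0.000335). Acacetin against OGD gave 0.61 ± 0.24, with an edgeR adjusted p of 0.83.

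mt-Nd2 (ENSMUSG00000064345.1) was measured at 494, 468, 667 and 412 CPM in the Acacetin libraries, at 311, 332, 336 and 283 CPM in the OGD libraries and at 165, 131, 191 and 82 CPM in the Control libraries. Again no group overlapped another, and Acacetin 3 was the highest and Control 4 the lowest library for both genes. It rose by 1.15 ± 0.23 on the log2 scale in OGD against Control (edgeR with Benjamini-Hochberg adjustment, adjusted p = 0.00198) and by 1.84 ± 0.23 in Acacetin against Control (edgeR adjusted p = 0.000231). For Acacetin against OGD the log2 fold change was 0.69 ± 0.22 (edgeR adjusted p = 0.797). mt-Nd1 and mt-Nd2 were called higher in OGD against Control under all 22 alternatives of processing or left-out libraries, among them one without OGD 2 and OGD 3 and one with the length trend removed. In Acacetin against Control both were called under all 21, among them one without Acacetin 1 and Acacetin 3.

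mt-Nd4 (ENSMUSG00000064363.1) encodes another membrane subunit of complex I, one of those thought to pump protons. It was measured at 243, 283, 587 and 334 CPM in the Acacetin libraries, at 194, 164, 197 and 213 CPM in the OGD libraries and at 139, 106, 174 and 90.5 CPM in the Control libraries. Every Acacetin library was above every OGD library, Acacetin 3 far above the rest, while OGD 2 lay below Control 3. mt-Nd4 rose by 1.51 ± 0.26 on the log2 scale in Acacetin against Control (edgeR with Benjamini-Hochberg adjustment, adjusted p = 0.00129). Its log2 fold change of 0.91 ± 0.26 for Acacetin against OGD was the highest of the 21 genes in that comparison and did not pass the test (1.88-fold, 95% interval 1.28 to 2.77 unadjusted, edgeR adjusted p = 0.712). Without Acacetin 3 it was 0.58, and mt-Ty and mt-Tl1 then had higher values. OGD against Control gave 0.59 ± 0.26 (edgeR adjusted p = 0.104), and mt-Nd4 passed in 2 of the 22 alternatives.

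mt-Nd5 (ENSMUSG00000064367.1), the largest mitochondrial subunit of complex I, was measured at 1641, 1385, 1376 and 1475 CPM in the Acacetin libraries, at 1066, 988, 1185 and 885 CPM in the OGD libraries and at 1251, 549, 1224 and 692 CPM in the Control libraries. All Acacetin libraries were above all others, and the Control libraries were spread out, with Control 1 and Control 3 above every OGD library and Control 2 and Control 4 below them. Acacetin against Control gave a log2 fold change of 0.66 ± 0.24, just short of a call (edgeR with Benjamini-Hochberg adjustment, adjusted p = 0.0524) and called under 9 of 21 alternatives. Acacetin against OGD gave 0.51 ± 0.24 (edgeR adjusted p = 0.83) and OGD against Control 0.15 ± 0.24 (edgeR adjusted p = 0.686).

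mt-Nd3 (ENSMUSG00000064360.1) and mt-Nd4l (ENSMUSG00000065947.1), small membrane subunits of complex I, were called on few reads and have the nuclear copies shown above. mt-Nd3 had 17, 15, 37 and 18 reads in the Acacetin libraries, 14, 21, 8 and 17 in the OGD libraries and 8, 3, 8 and 1 in the Control libraries. OGD 3, the shallowest library, had as few reads as Control 1 and Control 3, but scaled to CPM all OGD and Acacetin libraries were above all Control libraries. mt-Nd3 rose by 1.72 ± 0.53 in OGD against Control (edgeR with Benjamini-Hochberg adjustment, adjusted p = 0.0261) and by 1.83 ± 0.52 in Acacetin against Control (edgeR adjusted p = 0.0192). The first call was lost without OGD 2 (edgeR adjusted p = 0.0893), OGD 3 (0.0555), Control 2 (0.0775) or Control 4 (0.0715), and without both OGD 2 and OGD 3 (0.204). The second was lost without Control 2 (edgeR adjusted p = 0.0631) and without both Acacetin 1 and Acacetin 3 (0.0995). The copy Gm28438 was itself called higher in OGD against Control (log2 fold change 0.99 ± 0.32, edgeR adjusted p = 0.0330) and in Acacetin against Control (0.94 ± 0.32, edgeR adjusted p = 0.0412).

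mt-Nd4l had 12, 15, 15 and 10 reads in the Acacetin libraries, 14, 1, 5 and 10 in the OGD libraries and 5, 1, 3 and 1 in the Control libraries. In CPM the Acacetin libraries were above the Control libraries, and OGD 2 lay among the Control libraries. It rose by 2.09 ± 0.58 in Acacetin against Control (edgeR with Benjamini-Hochberg adjustment, adjusted p = 0.0170), a call lost without Control 2 (edgeR adjusted p = 0.0565). OGD against Control gave 1.61 ± 0.61 (edgeR adjusted p = 0.0632) and was called under 5 of 19 alternatives, among them those without OGD 2 (edgeR adjusted p = 0.0194) and without Control 1 (0.0359). Its end overlaps the start of mt-Nd4 on the same strand, so reads there belong to either gene.

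mt-Nd6 (ENSMUSG00000064368.1) is the sole mRNA of the light-strand transcript and in human cells is known to carry little or no poly(A). It varied more between libraries of one group than any other mRNA of the upper range, at 387, 89.5, 132 and 152 CPM in the Acacetin libraries, 164, 45.5, 443 and 87.2 CPM in the OGD libraries and 211, 56.7, 149.7 and 54.7 CPM in the Control libraries. OGD 3 was the highest and OGD 2 the lowest of all 12, so both ends of the range were in the 18S-rich libraries, and all groups overlapped. The coefficient of variation within a group was 70.5% in Acacetin, 96.7% in OGD and 64.5% in Control libraries. No comparison was called: the log2 fold change was 0.04 ± 0.64 for Acacetin against OGD (edgeR with Benjamini-Hochberg adjustment, adjusted p = 0.992), 0.65 ± 0.64 for OGD against Control (edgeR adjusted p = 0.497) and 0.69 ± 0.64 for Acacetin against Control (edgeR adjusted p = 0.440).

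For complex III, mt-Cytb (ENSMUSG00000064370.1) encodes cytochrome b, which passes electrons from ubiquinol. It was measured at 1047, 1066, 1396 and 864 CPM in the Acacetin libraries, at 713, 787, 742 and 627 CPM in the OGD libraries and at 772, 354, 732 and 362 CPM in the Control libraries. All Acacetin libraries were above all others, and Control 2 and Control 4 had about the same low level, while Control 1 and Control 3 lay among the OGD libraries. For mt-Nd5, too, Control 2 and Control 4 were the lowest of all libraries. mt-Cytb rose by 0.98 ± 0.26 on the log2 scale in Acacetin against Control (1.97-fold, edgeR with Benjamini-Hochberg adjustment, adjusted p = 0.0124), a call kept under all 21 alternatives. Acacetin against OGD gave 0.61 ± 0.25 (edgeR adjusted p = 0.83) and OGD against Control 0.37 ± 0.25 (edgeR adjusted p = 0.304).

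In complex IV, cytochrome c oxidase, mt-Co1 (ENSMUSG00000064351.1) encodes the catalytic subunit that reduces oxygen and was the most abundant mitochondrial mRNA per length. It was measured at 2748, 2652, 2954 and 2021 CPM in the Acacetin libraries, at 1891, 2093, 1809 and 1263 CPM in the OGD libraries and at 2057, 1825, 1969.6 and 2622 CPM in the Control libraries. The groups overlapped in every comparison, with OGD 4 lowest and Acacetin 3 highest, and Control 4, the lowest library for mt-Nd1 and mt-Nd2, was the highest Control library here. The log2 fold change was 0.56 ± 0.20 for Acacetin against OGD (edgeR with Benjamini-Hochberg adjustment, adjusted p = 0.83), -0.26 ± 0.20 for OGD against Control (0.833-fold, 95% interval 0.622 to 1.11, edgeR adjusted p = 0.346) and 0.29 ± 0.20 for Acacetin against Control (edgeR adjusted p = 0.279). None of these was called under any alternative.

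mt-Co2 (ENSMUSG00000064354.1), the subunit that takes electrons from cytochrome c, and mt-Co3 (ENSMUSG00000064358.1), another core subunit, have complete nuclear copies and gave 86 to 563 and 170 to 511 reads per library. Neither was called in any comparison. mt-Co2 averaged 8.93 ± 4.77 CPM in Acacetin, 6.91 ± 1.10 CPM in OGD and 8.02 ± 1.37 CPM in Control libraries, and mt-Co3 averaged 10.9 ± 2.22, 12.4 ± 4.4 and 10.3 ± 1.56 CPM in the same groups (SD, n = 4). Over the 3 comparisons, the log2 fold changes of mt-Co2 lay between -0.22 and 0.38 and those of mt-Co3 between -0.18 and 0.27. Without OGD 2 and OGD 3, the value of mt-Co3 turned from -0.18 to 0.26 for Acacetin against OGD.

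In complex V, mt-Atp6 (ENSMUSG00000064357.1), which forms part of the proton channel of ATP synthase, and mt-Atp8 (ENSMUSG00000064356.1), a small subunit beside it, overlap on the same strand. mt-Atp6 gave 38 to 249 reads per library and averaged 3.92 ± 1.98 CPM in Acacetin, 2.69 ± 0.374 CPM in OGD and 3.23 ± 0.671 CPM in Control libraries (SD, n = 4). mt-Atp8 gave 8 to 73 reads and averaged 1.03 ± 0.662, 0.794 ± 0.176 and 0.744 ± 0.278 CPM in the same groups. Acacetin 3 was the highest library for both, and no comparison was called. The log2 fold changes lay between -0.27 and 0.55.

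**Figure D4:**
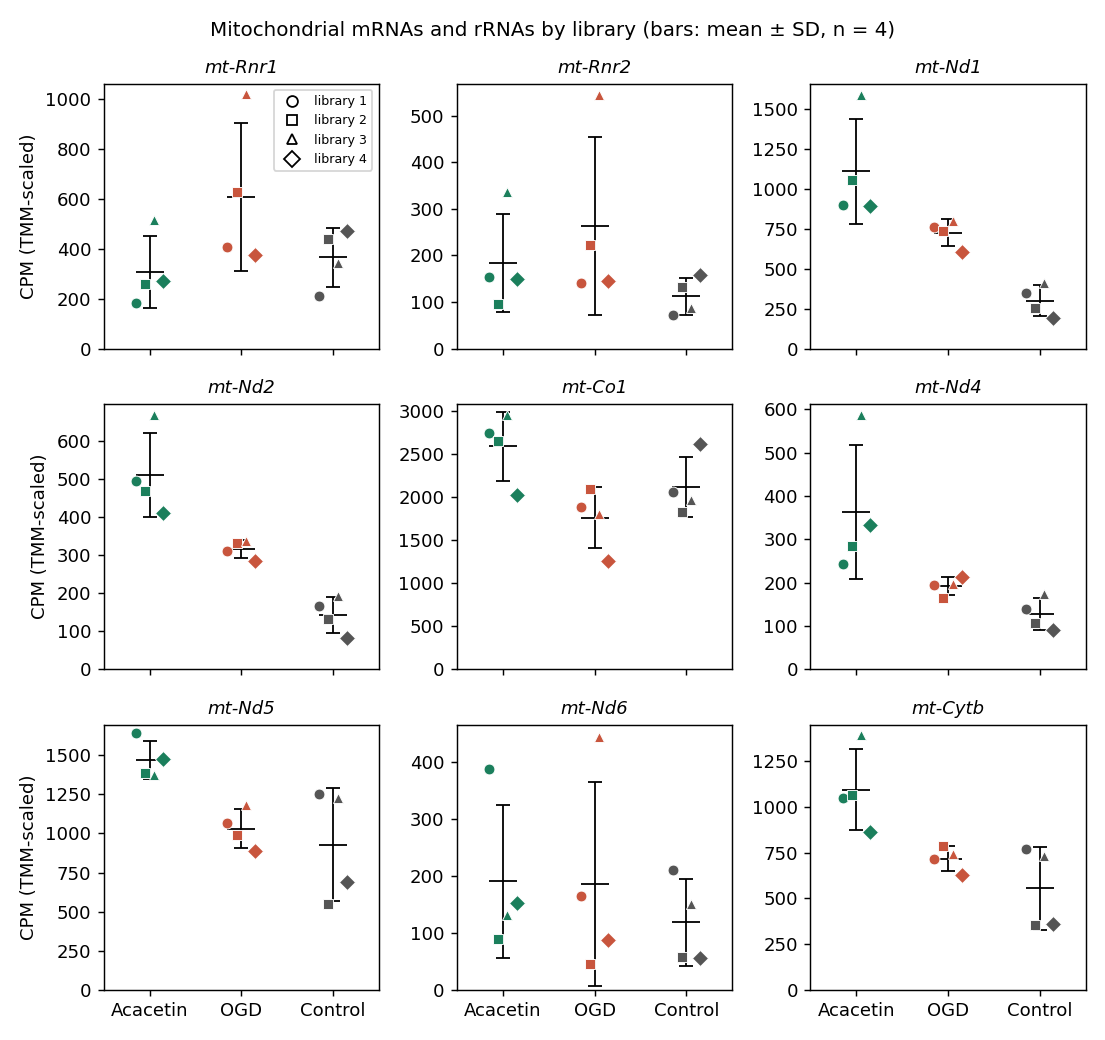
CPM (vertical axis, scaled by TMM, starting at 0) of both rRNAs and the 7 more abundant mRNAs in Acacetin, OGD and Control libraries, with a marker shape for each library number; lines show the mean and bars the SD of 4 libraries. mt-Nd1 and mt-Nd2 separate all 3 groups, mt-Co1 does not, and mt-Nd6 and the rRNAs are scattered within the groups, with OGD 3 highest.

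The rRNAs, mt-Rnr1 (12S, ENSMUSG00000064337.1) and mt-Rnr2 (16S, ENSMUSG00000064339.1), build the mitochondrial ribosome and come from the start of the heavy-strand transcript, upstream of mt-Nd1. mt-Rnr1 was measured at 182, 259, 512 and 272 CPM in the Acacetin libraries, at 408, 628, 1017 and 374 CPM in the OGD libraries and at 208, 438, 344 and 471 CPM in the Control libraries. mt-Rnr2 was measured at 154, 95, 336 and 148 CPM in the Acacetin libraries, at 142, 222, 545 and 146 CPM in the OGD libraries and at 71.9, 132, 87.9 and 157 CPM in the Control libraries. OGD 3 was the highest library for both, and the groups overlapped. OGD 3 and OGD 2 were also the libraries with the most Rn18s, while OGD 1 and OGD 4, with Rn18s at 0.248% and 0.277% of reads, lay within the range of the other groups. The part of rRNA carry-over in the mitochondrial rRNA levels was not tested.

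Neither rRNA was called. mt-Rnr1 had a log2 fold change of -0.98 ± 0.36 for Acacetin against OGD (edgeR with Benjamini-Hochberg adjustment, adjusted p = 0.83), the lowest of the 21 genes, and was the one gene among them that was lower at an unadjusted p under 0.05. It gave 0.73 ± 0.36 for OGD against Control (edgeR adjusted p = 0.153) and -0.25 ± 0.36 for Acacetin against Control (edgeR adjusted p = 0.624), which became 0.041 with the length trend removed. mt-Rnr2 gave -0.52 ± 0.45 for Acacetin against OGD (edgeR adjusted p = 0.861), which became 0.44 without OGD 2 and OGD 3. For OGD against Control mt-Rnr2 gave 1.23 ± 0.45 (edgeR adjusted p = 0.0558) and passed under 5 of 22 alternatives. Without OGD 3 this value was 0.60, and without OGD 2 and OGD 3 it was 0.37. In the same comparison the value of mt-Rnr1 was 0.36 without OGD 3 and 0.11 without OGD 2 and OGD 3.

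Of the tRNAs, 18 of 22 had a row in the table and 6 passed the filter. The tRNA genes are 59 to 75 bases long, shorter than a read of the labels' protocol, so reads counted there also cover neighbouring sequence or a transcript that has not been cut. mt-Tl1 (ENSMUSG00000064340.1), the leucine tRNA between mt-Rnr2 and mt-Nd1, is printed whole, and capitals mark its anticodon. In human cells this gene is known to hold the binding site of a transcription termination factor.
mt-Tl1: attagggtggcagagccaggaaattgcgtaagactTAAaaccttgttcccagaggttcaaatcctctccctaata
mt-Tl1 gave 68, 103, 122 and 67 reads in the Acacetin libraries, 58, 40, 30 and 42 in the OGD libraries and 29, 26, 34 and 17 in the Control libraries, or 2.94 ± 0.535, 1.88 ± 0.407 and 1.04 ± 0.339 CPM (SD, n = 4). In CPM both other groups were above all Control libraries, and Acacetin and OGD overlapped. The margin between OGD and Control was narrow, with OGD 4 at 1.36 CPM and Control 3 at 1.35 CPM. It rose by 1.49 ± 0.30 in Acacetin against Control (2.81-fold, edgeR with Benjamini-Hochberg adjustment, adjusted p = 0.00298), under all 21 alternatives. OGD against Control gave 0.84 ± 0.30 (edgeR adjusted p = 0.0512, called under 9 of 22 alternatives) and Acacetin against OGD 0.65 ± 0.29 (edgeR adjusted p = 0.83).

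The other 5 tested tRNAs, mt-Ta, mt-Tn, mt-Tc, mt-Ty and mt-Tp, all lie on the light-strand transcript, and edgeR called none of them in any comparison of the 12 libraries. Under alternatives, mt-Ty was called higher in Acacetin against Control in 2 of 18, by edgeR without Control 1 (adjusted p = 0.0316) and by limma on log2(FPKM + 0.1) (adjusted p = 0.0379). They gave at most 65 reads in a library, and mt-Ty had 0 reads in Control 2 and Control 4. The reads of all 8 light-strand tRNAs summed to 11.97, 5.53, 3.22 and 3.49 CPM in the Acacetin libraries, 4.01, 2.35, 9.92 and 5.26 CPM in the OGD libraries and 7.08, 1.74, 6.15 and 1.79 CPM in the Control libraries. Within the groups, Acacetin 1, OGD 3 and Control 1, which had the highest sums, also had the highest mt-Nd6. The other libraries did not keep one order. Acacetin 2 had the next highest sum of its group but the lowest mt-Nd6 (89.5 CPM). OGD 4 was above OGD 1 in the sum but below it in mt-Nd6 (87.2 against 164 CPM). The 10 heavy-strand tRNAs summed to 3.26 to 5.98 CPM in Acacetin, 2.01 to 5.16 CPM in OGD and 0.962 to 2.38 CPM in Control libraries, the lowest in Control 4. The 12 tRNAs below the filter had 3 to 157 reads over all libraries. The libraries are described as stranded, but the strand setting of the counting is not given in the sources used here, so reads of a gene and of the opposite strand cannot be told apart.

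Ratios of counts between genes within a library do not depend on the library's scaling. They were chosen after the values were seen and are given without a test. The ratio of mt-Nd1 to mt-Co1 was 0.326, 0.399, 0.538 and 0.443 in the Acacetin libraries, 0.404, 0.352, 0.442 and 0.481 in the OGD libraries and 0.170, 0.138, 0.207 and 0.0718 in the Control libraries. The range of the OGD libraries lay within that of the Acacetin libraries, and all libraries of both groups lay above every Control library. The ratio of mt-Nd2 to mt-Co1 followed the same order, at 0.176 to 0.226 in Acacetin, 0.159 to 0.224 in OGD and 0.0313 to 0.0970 in Control libraries. In contrast, the ratio of mt-Nd2 to mt-Nd1 stayed between 0.407 and 0.551 over all 12 libraries, a spread of 1.35-fold, the narrowest of the 12 ratios computed.

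In 2 other ratios, libraries of the same group stood apart from one another. The ratio of mt-Cytb to mt-Co1 was 0.375 and 0.372 in Control 1 and Control 3, beside 0.381 to 0.473 in Acacetin and 0.376 to 0.496 in OGD libraries, but 0.194 and 0.138 in Control 2 and Control 4. The ratio of mt-Nd6 to mt-Cytb spread 10.3-fold, between 0.0578 in OGD 2 and 0.597 in OGD 3. Further ratios set 1 group apart. For mt-Rnr1 to mt-Nd1 the ratio was 0.203 to 0.322 in Acacetin, 0.533 to 1.27 in OGD and 0.595 to 2.499 in Control libraries, so that all Acacetin libraries were below all others. mt-Nd4 to mt-Nd1 was 0.268 to 0.373 in Acacetin, 0.223 to 0.351 in OGD and 0.397 to 0.481 in Control libraries, so that all Control libraries were above all others. For mt-Rnr2 to mt-Rnr1 the ratio was 0.367 to 0.845 in Acacetin, 0.348 to 0.536 in OGD and 0.256 to 0.345 in Control libraries. All Control libraries were thus below all others, by a narrow margin to the OGD libraries.

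**Figure D5:**
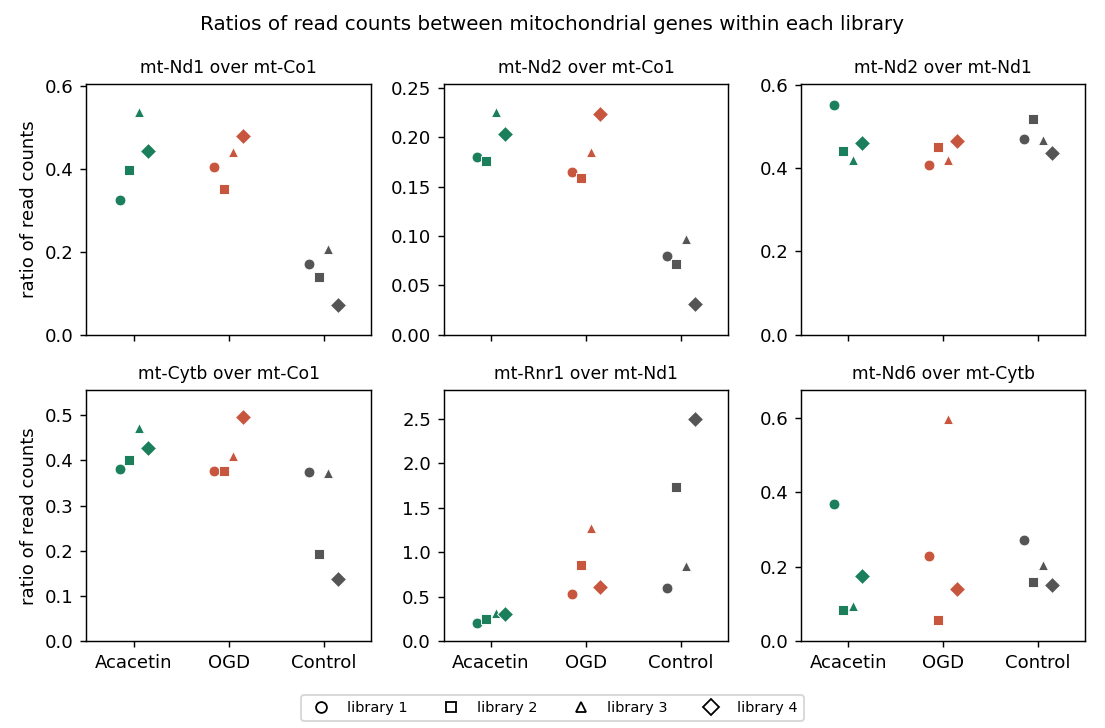
Ratios of raw read counts (vertical axes, starting at 0) between pairs of mitochondrial genes within each library of Acacetin, OGD and Control, with a marker shape for each library number. The ratio of mt-Nd1 to mt-Co1 is between 0.326 and 0.538 in the Acacetin and OGD libraries and at most 0.207 in the Control libraries, and the ratio of mt-Nd2 to mt-Nd1 is between 0.407 and 0.551 in all of them.

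Nuclear genes for the same complexes were set beside the mitochondrial ones, since most subunits are encoded in the nucleus and imported. Of 79 nuclear subunits of complexes I to V, all tested, 0 were called higher and 3 lower in OGD against Control, where 16.2% and 12.6% of all tested genes were called higher and lower, with a median log2 fold change of -0.20. In Acacetin against Control 0 were higher and 3 lower, where 14% and 12.9% of all tested genes were, with a median of -0.27, and in Acacetin against OGD edgeR called none, with a median of -0.05. In complex I, 1 of 36 was called in each comparison with Control, Ndufv3, a small accessory subunit, which averaged 171 ± 71.5 CPM in Acacetin, 162 ± 39.2 CPM in OGD and 298 ± 27.6 CPM in Control libraries. In complex V, 2 of 18 were called in each: Dmac2l fell in both, by 0.95 ± 0.24 in OGD against Control (edgeR with Benjamini-Hochberg adjustment, adjusted p = 0.0100) and by 0.90 ± 0.24 in Acacetin against Control (edgeR adjusted p = 0.0141). The second gene was Atp5g2 in OGD against Control and Atp5e in Acacetin against Control. None of 4 subunits of complex II, 9 of complex III and 12 of complex IV was called in any comparison.

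Genes that copy, transcribe and mature mitochondrial nucleic acids were called in both directions against Control. Their counts stand beside the same shares of all tested genes, 16.2% higher and 12.6% lower (28.8% called) in OGD against Control and 14% higher and 12.9% lower (26.9% called) in Acacetin against Control. Of 14 genes of mtDNA replication and the nucleoid, 4 were higher and 2 lower in OGD against Control, and 2 higher and 2 lower in Acacetin against Control. Dna2, a nuclease and helicase, averaged 12.6 ± 3.94 CPM in Acacetin, 12.8 ± 2.14 CPM in OGD and 5.52 ± 0.650 CPM in Control libraries and rose in both. Dguok, which makes purine nucleotides for mtDNA, fell in both, at 16.1 ± 5.59 CPM in Acacetin and 13.2 ± 2.96 CPM in OGD, against 34.6 ± 2.25 CPM in Control libraries. Twnk, the mtDNA helicase, rose by 0.63 ± 0.13 on the log2 scale in OGD against Control (edgeR with Benjamini-Hochberg adjustment, adjusted p = 0.00255) and was also called in Acacetin against Control. Tk2, a pyrimidine nucleoside kinase, fell by 0.82 ± 0.17 in Acacetin against Control (edgeR adjusted p = 0.00331) and was also called in OGD against Control.

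Of 8 tested genes of mtDNA transcription, 1 was called in each comparison with Control (28.8% and 26.9% of all tested genes for OGD and Acacetin), and it was lower in both: Tfb1m, a methyltransferase of the 12S rRNA, at 5.51 ± 0.574 CPM in Acacetin, 5.12 ± 1.11 CPM in OGD and 10.6 ± 1.33 CPM in Control libraries. Of 22 genes of mitochondrial RNA processing, stability and decay, 6 were higher and 2 lower in OGD against Control (16.2% and 12.6% of all tested genes). In Acacetin against Control 8 were higher and 2 lower (14% and 12.9%), and the median log2 fold changes were 0.37 and 0.45. In the same order, 16 and 20 of the 22 were above 0, where 51.6% and 55.1% of all tested genes were. For the 14 replication genes it was 10 and 9, and for the 8 transcription genes 5 in each. Fastkd3, an RNA-binding protein of the FASTK family, rose by 1.09 ± 0.13 in OGD against Control (edgeR with Benjamini-Hochberg adjustment, adjusted p = 0.000142) and by 1.10 ± 0.13 in Acacetin against Control (edgeR adjusted p = 0.000206). Elac2, which cuts tRNAs at their 3′ ends, and Tbrg4, also of the FASTK family, rose in OGD against Control by 0.55 ± 0.12 and 0.63 ± 0.16 and were called in Acacetin against Control as well. Pde12, which removes poly(A), rose by 0.66 ± 0.19 in Acacetin against Control and was called in OGD against Control too. Fastkd5, which is known to act on transcripts that no tRNA separates, rose by 1.62 ± 0.37 in Acacetin against Control, at 4.57 ± 2.17 CPM in Acacetin, against 1.49 ± 0.310 CPM in Control libraries. Not every gene of the FASTK family was higher: Fastk averaged 71.4 ± 22.4 CPM in Acacetin and 62.7 ± 8.21 CPM in OGD, against 105 ± 15.7 CPM in Control libraries. Of 8 tested regulators of mitochondrial biogenesis, 2 were higher and 2 lower in OGD against Control (28.8% of all tested genes called), and 1 higher and 2 lower in Acacetin against Control (26.9%). Yy1 rose and Myc and Gabpb1 fell in both, and Pprc1 rose in OGD against Control. In none of these 4 lists did edgeR call a gene in Acacetin against OGD.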

How the data were processed

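RNA of 12 BV2 samples was sequenced in pairs from stranded mRNA libraries, per the labels' protocols. Tools named in the submitters' processing notes are bcl2fastq, HISAT2 and DESeq2, with the build GRCm39; counter, annotation and strand setting are not given in the sources used here. Raw read counts per gene and FPKM values, counts scaled by depth and gene length, were deposited by the authors. All columns matched a library by name. Genes passing filterByExpr (minimum count 10, total 15) were tested in edgeR 4.0.16 (R 4.3.3) with TMM and quasi-likelihood tests, 1 mean per group over all 12 libraries, and Benjamini-Hochberg adjustment over 13249 genes; a call is an adjusted p under 0.05. DESeq2 1.42.0, limma 3.58.1 on FPKM, other filters, scalings, a replicate block and left-out libraries were alternatives. On simulated data of OGD against Control (13249 genes), 92% and 78% of genes changed by a log2 of 2 and -2 were recovered, and 56% and 42% of those changed by 1 and -1. Nuclear copies were searched with BLASTN 2.17.0 among GENCODE M21 transcripts of GRCm38, which also gave gene order, strand, lengths and sequences; its coordinates were not used, since the files' build is GRCm39. Members, lists and alternatives were chosen with earlier results of these data known. From each nuclear list, the 3 called genes with the smallest p in a comparison were named, and Fastk was added beside its family.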

Additional observations from a re-analysis of the deposited data

Results flagged for a closer look

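In 5 of 72 groups of 4 libraries examined (6.94%), 1 library lay far from the other 3 relative to the group's range; chance alone marks about 1 group in 20 this way. mt-Atp8 was at 2.01 CPM in Acacetin 3, against 0.549 to 0.786 CPM in the other Acacetin libraries. It was at 0.327 CPM in Control 1, against 0.863 to 0.913 CPM in the other Control libraries, on 8 reads. mt-Tp, a proline tRNA of the light-strand transcript, was at 3.09 CPM in Acacetin 1, against 0.485 to 0.873 CPM in the other Acacetin libraries. The share of reads from all mitochondrial genes was 0.486% in OGD 2, against 0.555% to 0.566% in the other OGD libraries. It was 0.377% in Control 2, against 0.490% to 0.514% in the other Control libraries.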

How the results depend on the processing

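The calls of mt-Nd1 and mt-Nd2 in OGD against Control and of mt-Nd1, mt-Nd2, mt-Nd4, mt-Cytb and mt-Tl1 in Acacetin against Control kept direction and threshold under every alternative run. Acacetin against OGD had 0 called mitochondrial genes under all of them, where at most 0.285% of all tested genes were called. In OGD against Control the count was 3, and it became 5 with DESeq2, 5 with the replicate block, 5 with the length trend removed and 6 in a fit of the 8 libraries compared, settings that called 33.3%, 34.5%, 33.4% and 38% of all tested genes, against 28.8% in the reported fit. It was 2 to 4 under the other settings, where 14.3% to 30.8% of all tested genes were called. With 1 library left out it was 2 to 5, where 20.8% to 26% were called, 5 being without OGD 4 (25.8%). In Acacetin against Control the count was 7, where 26.9% of all tested genes were called. The other settings gave 5 to 9 (14% to 33.3% of all tested genes), with 8 for the replicate block (32.3%). With 1 library left out it was 5 to 9, where 17.6% to 43.1% of all tested genes were called. mt-Nd4 (log2 fold change 0.64, edgeR adjusted p = 0.0283) and mt-Tl1 (0.88, adjusted p = 0.0137) passed in OGD against Control with the replicate block. The numbers were not taken as pairs, and not every library correlated best with its own number. Deviations of same-numbered libraries correlated at -0.12 to 0.38 in Acacetin against OGD, 0.071 to 0.51 in OGD against Control and -0.29 to 0.40 in Acacetin against Control. Libraries numbered 4 did correlate best with each other in all 3 comparisons, at 0.38, 0.51 and 0.40 in the same order. What the numbers stand for is not given in the labels, and a link between libraries of one number was not tested. The share of reads from mitochondrial genes differed by 0.200 to 0.400 percentage points between Acacetin and OGD, 0.0399 to 0.0890 between OGD and Control and 0.271 to 0.471 between Acacetin and Control libraries with 1 library left out.

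With the replicate block, log2 fold changes changed sign to -0.10 for mt-Tp in Acacetin against OGD, 0.16 for mt-Tn in OGD against Control and 0.33 for mt-Ta in Acacetin against Control. With counts thinned to the smallest library, log2 fold changes changed sign to -0.049 for mt-Tp in Acacetin against OGD and -0.00703 for mt-Tn in Acacetin against Control. With limma on log2(FPKM + 1), log2 fold changes changed sign to 0.16 for mt-Co3 and 0.0203 for mt-Ta in Acacetin against OGD, 0.16 for mt-Tn, -0.012 for mt-Atp8 and -0.0897 for mt-Tp in OGD against Control and 0.48 for mt-Ta in Acacetin against Control. With limma on log2(FPKM + 0.1), log2 fold changes changed sign to 0.17 for mt-Co3 and 0.047 for mt-Ta in Acacetin against OGD, 0.23 for mt-Tn and -0.13 for mt-Tp in OGD against Control and 0.60 for mt-Ta in Acacetin against Control. With the length trend removed, log2 fold changes changed sign to 0.015 for mt-Co3 and -0.14 for mt-Tp in Acacetin against OGD, 0.30 for mt-Tn in OGD against Control and 0.30 for mt-Ta and 0.041 for mt-Rnr1 in Acacetin against Control. Without OGD 2 and OGD 3, log2 fold changes changed sign to 0.26 for mt-Co3 and 0.44 for mt-Rnr2 in Acacetin against OGD and -0.096 for mt-Co3, 0.045 for mt-Tn and -0.18 for mt-Atp8 in OGD against Control. Without Acacetin 1 and Acacetin 3, log2 fold changes changed sign to -0.36 for mt-Nd3, -0.61 for mt-Nd6, -0.21 for mt-Atp8 and -0.81 for mt-Tp in Acacetin against OGD and 0.085 for mt-Ta, -0.15 for mt-Atp8, -0.017 for mt-Atp6 and -0.57 for mt-Tp in Acacetin against Control. With the length trend removed and OGD 2 and OGD 3 left out, log2 fold changes changed sign to 0.24 for mt-Co3, -0.21 for mt-Tn, -0.046 for mt-Tc, 0.43 for mt-Rnr2 and -0.21 for mt-Tp in Acacetin against OGD and 0.63 for mt-Tn in OGD against Control. With scaling without rRNA genes, log2 fold changes changed sign to 0.014 for mt-Ta in Acacetin against Control. In Acacetin against OGD, values that changed sign with 1 library left out ranged over -0.15 to 0.62 for mt-Atp8, -0.021 to 0.62 for mt-Co2, -0.39 to 0.019 for mt-Co3, -0.13 to 0.42 for mt-Nd3, -0.57 to 0.98 for mt-Nd6, -0.99 to 0.21 for mt-Rnr2, -0.70 to 0.052 for mt-Ta, -0.078 to 0.50 for mt-Tc, -0.0089 to 0.42 for mt-Tn, -0.88 to 0.58 for mt-Tp and -0.095 to 0.91 for mt-Ty. In OGD against Control, values that changed sign with 1 library left out ranged over -0.18 to 0.17 for mt-Atp8, -0.038 to 0.33 for mt-Nd5, -0.27 to 1.084 for mt-Nd6, -0.036 to 0.83 for mt-Ta, -0.0088 to 0.76 for mt-Tc, -0.42 to 0.46 for mt-Tn and -0.29 to 0.58 for mt-Tp. In Acacetin against Control, values that changed sign with 1 library left out ranged over -0.13 to 0.45 for mt-Atp6, -0.096 to 0.68 for mt-Atp8, -0.24 to 0.40 for mt-Co2, -0.049 to 0.17 for mt-Co3, -0.35 to 0.41 for mt-Ta, -0.19 to 0.67 for mt-Tn and -0.63 to 0.55 for mt-Tp. None of these genes was called in the comparison named, and the cause was not tested. The median of all genes shifted by 0.17 and 0.26 with limma on log2(FPKM + 1) and log2(FPKM + 0.1) in Acacetin against OGD and by -0.13 with limma on log2(FPKM + 0.1) in OGD against Control. On the log2(FPKM + 1) scale, which understates changes of low genes, mt-Nd3 gave 0.74 in OGD against Control and 0.98 in Acacetin against Control, and mt-Nd4l gave 0.47 and 0.89. Genes removed by a stricter filter have no value there, and leaving out libraries of the group outside a comparison was not run where it does not touch the groups compared. The removal of the length trend together with OGD 2 and OGD 3 was added after seeing the data. Counts of at most 65 reads per library limit mt-Nd3, mt-Nd4l and the light-strand tRNAs, and the nuclear copies limit mt-Co2, mt-Co3, mt-Atp6, mt-Nd3 and mt-Nd4l. Copies over 63.6% of mt-Nd4 and 31.3% of mt-Co1 may limit these genes as well, which was not tested.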
